A study of Mus musculus with 6 samples.

Results

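The 3 largest olfactory receptor gene clusters of the mouse genome were examined for 5-hydroxymethylcytosine (5hmC), the oxidised form of methylated cytosine that Tet enzymes make. Regions of the deposited 5hmC count table were taken as members when their midpoint lay on chromosome 2 between 85.0 and 90.2 Mb, on chromosome 7 between 109.6 and 115.6 Mb, or on chromosome 9 between 37.5 and 40.2 Mb. The positions are those of the mouse genome build mm9. This gave 242 of 192196 regions: 40 on chromosome 2, 151 on chromosome 7 and 51 on chromosome 9. The 3 intervals, called arrays here, span 13.9 Mb. The 5 Mb on each side of every array, 30 Mb in all with 3425 regions, served as flanks.

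The libraries were made from Tet1 knockout (KO) and Tet1 wild-type (WT) mice, 2 libraries of each genotype, labelled as brain. The methods of the study describe astrocytes cultured from newborn pups, with a constitutive knockout of Tet1 in the KO animals. 5hmC was coupled to a modified glucose carrying biotin, and the tagged DNA was captured and sequenced. No source used here says that the 2 samples of a genotype came from separate animals, so the p-values measure only the spread between these samples, which may be technical. The libraries are called KO1, KO2, WT1 and WT2 after the sample numbers in the labels. They held between 16819455 and 19288900 reads in listed regions. The KO pair stood further apart than the WT pair: the biological coefficient of variation, the relative spread between samples beyond counting, was 0.433 in KO and 0.218 in WT. Whether Tet1 itself was lost cannot be read from these counts of 5hmC.

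Olfactory receptors are the odour sensors of the nose, and their genes stand side by side in long clusters made by repeated gene duplication. Each sensory neuron of the nose uses a single member of the family, and cells outside the nose, glia included, keep nearly all of them silent. 5hmC in neurons is known to be most abundant in the bodies of transcribed genes and at active regulatory elements. For astrocytes, the paper reports nearly the same enrichment at promoters as in gene bodies, and sets this apart from neurons.

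In the gene order of RefSeq for GRCm38.p6, the build after mm9, the longest runs of olfactory receptor genes also lay on these chromosomes. The run on chromosome 2 held 222 protein-coding olfactory receptor genes and 71 pseudogenes, with 3 other protein-coding genes among them: Fads2b, Pramel7 and Pramel6. The run on chromosome 9 held 95 such genes and 31 pseudogenes, with Vwa5a, AW551984 and Tmem225 as the 3 others. The run on chromosome 7 held 193 and 45, but 55 other protein-coding genes stood among them. These included the beta-globin genes Hbb-bt and Hbb-bs, a group of Trim genes, and an unbroken block of 21 genes that holds Ilk, the integrin-linked kinase, Tpp1, a lysosomal peptidase, and Smpd1, the acid sphingomyelinase. The next longest run, on chromosome 19, held 63 olfactory receptor genes. No annotation of mm9 was used here, so counted regions were not placed in genes, exons or introns.

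5hmC arises from methylated cytosine, which in most mammalian cells stands mainly in CG dinucleotides. The listed promoter windows of the olfactory receptor genes in the 3 runs held few of them. CG content beyond promoter windows and methylation were not measured here. Whether CG content bears on the density of counted regions in the arrays was not tested. RefSeq promoter windows of 300 bases, 250 before and 50 after the first listed start, were matched for 435 of 510 olfactory receptor genes. Whether the first listed start of a gene is its main one was not checked. The motif searched was CG, which reads the same on both strands. The median was 1 CG a window (quartiles 0 and 2, highest 8), and 64.6% of the windows held at least 1. Over the windows of all 27025 genes in the table, the median was 7 (quartiles 3 and 21), and 94.2% held at least 1. A count of 10 or more was found in 0 of 435 olfactory receptor windows and in 43.9% of all windows. The median GC content was 34.0% against 52.7%. Over the 17492 windows of protein-coding genes, the median was 13 CG, 57.2% held 10 or more and the median GC content was 56.3%. The median was 1 CG in each of the 3 runs. To show this difference, the 250 bases before the start are printed for an olfactory receptor gene of median CG count in each run, and below it for the first other protein-coding gene past that run with an entry. CG is in capitals.
Olfr988: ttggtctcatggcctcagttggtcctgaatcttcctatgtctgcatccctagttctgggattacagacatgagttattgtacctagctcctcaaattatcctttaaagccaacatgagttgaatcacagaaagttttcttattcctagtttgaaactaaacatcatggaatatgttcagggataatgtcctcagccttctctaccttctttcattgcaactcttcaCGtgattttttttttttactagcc
Ptprj: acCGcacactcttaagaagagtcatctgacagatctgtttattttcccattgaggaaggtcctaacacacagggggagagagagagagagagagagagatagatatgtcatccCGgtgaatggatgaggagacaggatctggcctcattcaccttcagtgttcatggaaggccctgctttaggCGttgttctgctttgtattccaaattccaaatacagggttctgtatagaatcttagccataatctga
Olfr543: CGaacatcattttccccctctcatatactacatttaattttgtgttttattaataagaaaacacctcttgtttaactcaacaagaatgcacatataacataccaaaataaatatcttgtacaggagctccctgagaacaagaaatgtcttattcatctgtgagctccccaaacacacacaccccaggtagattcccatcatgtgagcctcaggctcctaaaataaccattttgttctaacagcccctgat
Eif3f: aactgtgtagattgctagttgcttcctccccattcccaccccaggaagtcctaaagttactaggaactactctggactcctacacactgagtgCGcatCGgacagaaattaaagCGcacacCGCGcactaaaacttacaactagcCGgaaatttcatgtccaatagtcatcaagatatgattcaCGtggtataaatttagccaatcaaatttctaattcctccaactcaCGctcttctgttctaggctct
Olfr881: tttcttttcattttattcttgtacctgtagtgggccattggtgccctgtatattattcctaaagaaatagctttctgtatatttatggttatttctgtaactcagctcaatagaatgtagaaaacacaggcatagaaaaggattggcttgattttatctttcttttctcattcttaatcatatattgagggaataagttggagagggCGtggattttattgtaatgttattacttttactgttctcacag
Zfp202: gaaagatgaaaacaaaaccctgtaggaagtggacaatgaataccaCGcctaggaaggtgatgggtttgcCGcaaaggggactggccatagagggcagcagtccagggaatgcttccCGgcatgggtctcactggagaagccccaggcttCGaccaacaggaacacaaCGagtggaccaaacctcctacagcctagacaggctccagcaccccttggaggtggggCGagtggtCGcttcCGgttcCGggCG

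The olfactory receptor windows are those of Olfr988 (chr2:85353925-85354174, minus strand), Olfr543 (chr7:102477903-102478152, minus strand) and Olfr881 (chr9:37992242-37992491, plus strand), each with 1 CG. Their neighbours are Ptprj (chr2:90479175-90479424, minus strand), a receptor tyrosine phosphatase, Eif3f (chr7:108934165-108934414, plus strand), a subunit of a translation initiation factor, and Zfp202 (chr9:40192066-40192315, plus strand), a zinc finger protein. The 250 bases printed for Ptprj, Eif3f and Zfp202 hold 3, 8 and 10 CG. RefSeq lists a further start of Ptprj upstream with a window of its own, which was not counted here, so the count of 3 holds for the first listed start and may not be that of the main promoter. All of these coordinates are GRCm38.p6 on the strand given, and none of the windows was matched to a counted region.

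The arrays were poor in 5hmC regions, and the drop was found in all 3. They held 17.4 regions per Mb, against 114.2 per Mb in the flanks. The ratio was 0.153 (95% Wilson interval 0.134 to 0.174, counting error only), so the flanks were 6.56-fold denser. The array of chromosome 2 was the poorest, with 7.69 regions per Mb against 77.4 in its flanks, which were 10.1-fold denser. On chromosome 9 the values were 18.9 and 130.2 per Mb, a 6.89-fold difference. The array of chromosome 7 was the least poor, with 25.2 against 134.9 per Mb, a 5.36-fold difference. The flanks were uneven: the flank of chromosome 2 nearer the centromere held 40.0 regions per Mb and the one on the other side 114.8, and on chromosome 9 the values were 89.0 and 171.4. Every array was still less dense than either of its flanks.

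Measured by length, the regions covered 0.741% of the arrays and 6.82% of the flanks. The coverage was 0.277% on chromosome 2, 1.07% on chromosome 7 and 0.899% on chromosome 9. For comparison with the genome, the autosomes were divided into 2387 windows of 1 Mb, which held a median of 73 regions (quartiles 29 and 121). The 12 windows wholly inside an array held a median of 7, from 2 to 64. A count of 10 or fewer was found in 7 of these 12 windows (58.3%), against 9.01% of all autosomal windows. Windows this sparse were thus also found elsewhere, the lowest with 0 regions.

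The count of regions is the same for all libraries because the authors listed regions once for the series. A count that can differ by library is the number of regions with at least 10 reads. It was 11.7 per Mb of array in KO1, 10.7 in KO2, 11.3 in WT1 and 11.8 in WT2. In the flanks it was 108.7, 103.5, 108.1 and 108.3 per Mb in the same order. The flanks were thus 9.27-, 9.66-, 9.57- and 9.18-fold denser, a somewhat larger gap than for all listed regions, and the genotypes overlapped.

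**Figure D1:**
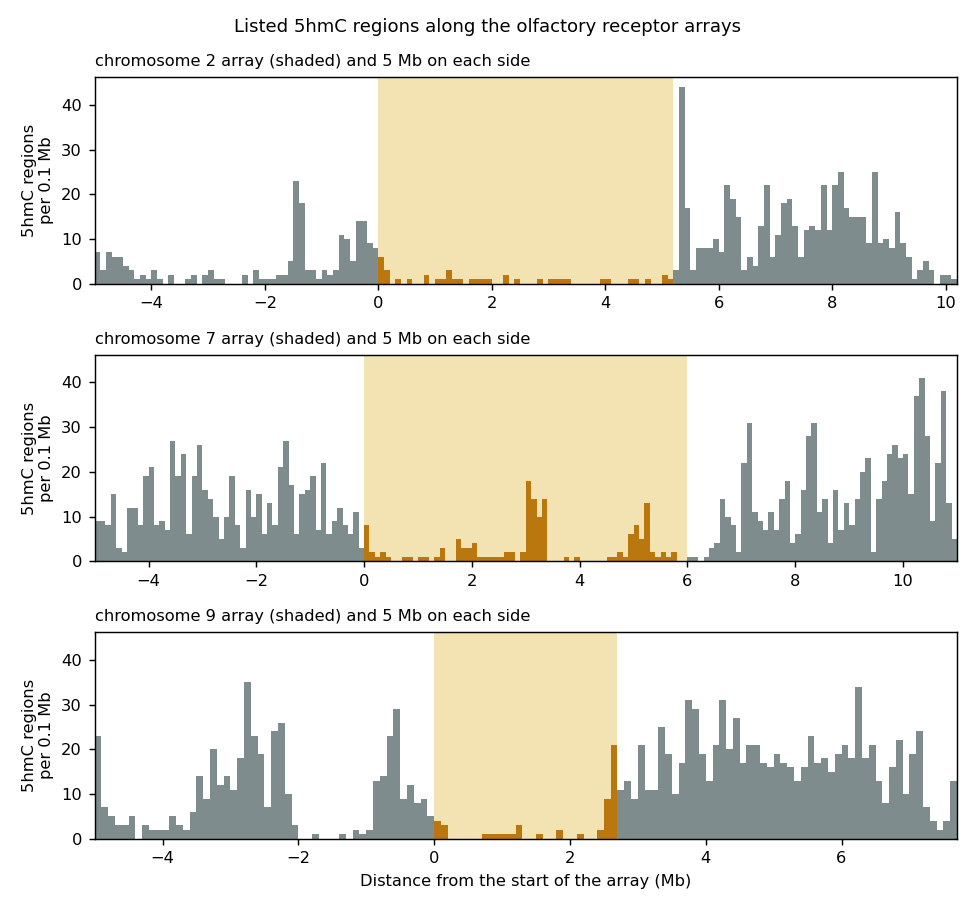
Number of listed 5hmC regions in each 0.1 Mb of the 3 arrays (shaded, orange bars) and of the 5 Mb on each side (grey bars), against the distance from the start of the array in Mb. Most of the shaded bins hold 0 or 1 region, whereas the flanks have a median of 10, and the array of chromosome 7 has tall groups of bars near 3 and 5 Mb.

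Within the arrays the regions were gathered in a few places and long stretches had none. Of 139 bins of 0.1 Mb, 55 (39.6%) were empty, against 17 of 300 (5.67%) in the flanks. The longest stretch without a region was 618 kb on chromosome 2 (chr2:88371869-88990051), 605 kb on chromosome 7 (chr7:113581715-114186347) and 532.5 kb on chromosome 9 (chr9:37670727-38203246). Stretches of more than 100 kb without a region made up 85.0% of the array of chromosome 2, 55.2% of that of chromosome 7 and 74.9% of that of chromosome 9. In the 6 flank windows this share ran from 0.0 to 31.6%. The highest of these was the flank of chromosome 2 near the centromere, which is also the sparsest flank.

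The regions on either side of the longest empty stretches were themselves close to empty. On chromosome 2, the region before the stretch had counts of 4 and 2 in KO1 and KO2 and 0 and 2 in WT1 and WT2. The region after it had 6 and 2 against 2 and 2. On chromosome 7, the region chr7:113581512-113581714, just before the stretch, had 0 counts in all 4 libraries, and the one after it had 1 and 2 in KO and 7 and 2 in WT. On chromosome 9 the counts were 0 and 0 in KO and 6 and 3 in WT before the stretch, and 2 and 0 against 1 and 2 after it. A count of 3 equals 0.141 CPM in KO1, 0.195 in KO2, 0.160 in WT1 and 0.174 in WT2, where CPM are counts scaled to library size. At this depth a level below these values cannot be told from no signal.

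In the median of the 6 borders, the density fell close to the border, but single borders differed. Over the 6 borders, the median density was 86 regions per Mb in the last 0.25 Mb of the flank, from 8 to 240. It was 32 per Mb in the first 0.25 Mb of the array and 4 per Mb in the next, where the 6 borders ran from 0 to 12. Further out the median rose to between 90 and 138 per Mb within 2 Mb of the border. The flank with 8 regions per Mb at its border was that of chromosome 7 on the side of the far telomere, where the density was still low outside the array. There the first 0.25 Mb inside also had 8 per Mb, so no fall was seen at that border. At the end of the array of chromosome 9, the density was 112 per Mb in the last step outside and 124 in the first step inside. It was 4 per Mb in the next step.

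**Figure D2:**
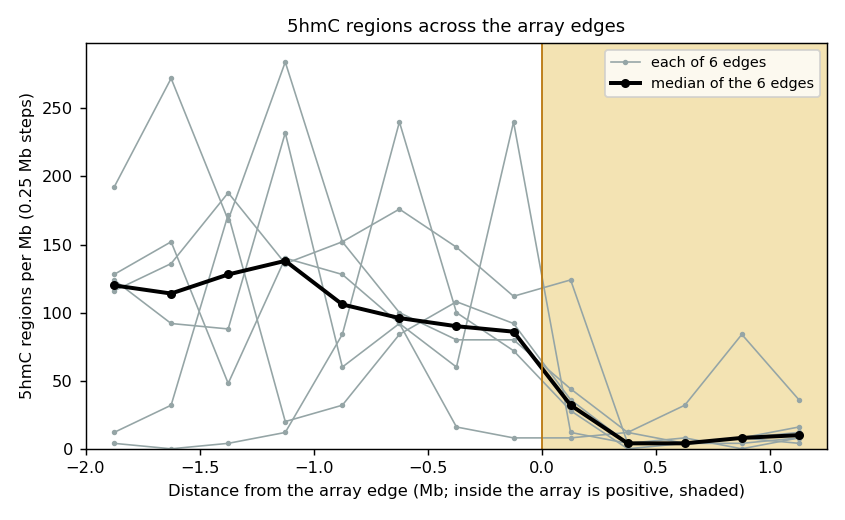
Density of listed 5hmC regions in steps of 0.25 Mb across the 6 array borders, in regions per Mb, with distance from the border in Mb on the horizontal axis and the inside of the array shaded. Grey lines are the 6 borders and the black line is their median, which goes from 86 just outside to 32 and then 4 inside.

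Most of the CPM summed over the listed array regions lay in 6 dense stretches. These were defined as 0.1 Mb bins, or neighbouring bins, with at least 5 regions each. Together they made up 1.3 Mb, or 9.35% of the arrays, and held 137 regions (56.6%) and 83.0% of the summed CPM. The one of highest summed CPM lay on chromosome 7 from 112.6 to 113.0 Mb, with 56 regions and 54.8% of the CPM of its array. The stretch from 114.5 to 114.9 Mb on the same chromosome held 32 regions and 24.8%. The stretch of chromosome 9 from 40.0 to 40.2 Mb, at the end of the array, held 30 regions and 84.8% of the CPM of that array. The others were at the start of the array of chromosome 2 (85.0 to 85.1 Mb, 6 regions), at the start of that of chromosome 7 (109.6 to 109.7 Mb, 8 regions) and at 111.3 to 111.4 Mb on chromosome 7 (5 regions). Of the 6 stretches, 3 touch an array border. The bins were chosen by their own number of regions, so these shares and the contrast that follows are descriptions.

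Summed over these stretches, the level was 0.321 CPM per kb of genome in KO1, 0.407 in KO2, 0.356 in WT1 and 0.363 in WT2. The stretches differed. The one at 40.0 to 40.2 Mb on chromosome 9 had 0.484, 0.577, 0.530 and 0.572 CPM per kb of genome in the same order, and the one at 112.6 to 113.0 Mb on chromosome 7 had 0.439, 0.591, 0.522 and 0.549. The lowest were those at 111.3 to 111.4 Mb on chromosome 7, from 0.0872 to 0.104, and at the start of the array of chromosome 2, from 0.116 to 0.140. The other 12.6 Mb, with 105 regions or 8.33 per Mb, had 0.00783, 0.00715, 0.00796 and 0.00770 CPM per kb of genome. In that part a region had a median of 4 and 2 reads in KO1 and KO2 and 5 in both WT libraries, and 32.4% of the regions passed the low-count filter of edgeR. On chromosome 2 the stretch is short, and 77.1% of the CPM of that array lay outside it.

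To compare levels, the CPM of all regions of a window were summed and divided by its length in kb. The array of chromosome 2 had 0.0112 CPM per kb of genome in KO1, 0.0101 in KO2, 0.0106 in WT1 and 0.0110 in WT2. Its flanks had 0.282, 0.329, 0.284 and 0.295. The flanks were therefore 25.2-, 32.7-, 26.9- and 26.8-fold higher. The array of chromosome 7 had 0.0563, 0.0728, 0.0636 and 0.0629 CPM per kb of genome in the same order, and its flanks had 0.578, 0.719, 0.612 and 0.627. This is a difference of 10.3-, 9.88-, 9.61- and 9.97-fold. In both, every library placed the array below each flank, and no pair of array and flank values overlapped.

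On chromosome 9 the array had 0.0445, 0.0480, 0.0466 and 0.0498 CPM per kb of genome, a narrow range. Its flanks ranged from 0.897 in KO1 and 1.18 in WT1 to 2.12 in WT2 and 2.51 in KO2. This spread came from a single region, chr9:35112652-35113320, which held 81084, 297409, 122026 and 272452 reads in KO1, KO2, WT1 and WT2. These were 68.3, 90.8, 78.4 and 89.8% of all reads in the flank window near the centromere, and the region ranked 4 in the whole table by mean count. KO2 and WT2 both lay above KO1 and WT1, so the genotypes overlapped. Its counts are far above those of its neighbours, so the flank values of chromosome 9 and of the 3 arrays together are given with and without it. Without it, the flanks of chromosome 9 had 0.517, 0.577, 0.528 and 0.538 CPM per kb of genome, 11.6-, 12.0-, 11.3- and 10.8-fold above the array.

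Over the 3 arrays together, the level was 0.0371, 0.0445, 0.0405 and 0.0409 CPM per kb of genome in KO1, KO2, WT1 and WT2. The flanks had 0.586, 1.19, 0.692 and 1.01 with all regions, and 0.459, 0.542, 0.474 and 0.487 without the region named above. Without it, the log2 ratio of array to flank was -3.63 and -3.61 in KO1 and KO2 and -3.55 and -3.57 in WT1 and WT2, with a mean of -3.59 ± 0.03 (SD, n = 4). The flanks were 12.4-, 12.2-, 11.7- and 11.9-fold higher. With all regions, the ratio was -3.98, -4.74, -4.10 and -4.63, with a mean of -4.36 ± 0.38 (SD, n = 4). The ratio was below 0 in 4 of 4 libraries either way, and the exact two-sided permutation test over 4 libraries (sign changes) gave p = 0.125, the smallest value that 4 libraries allow.

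By array, without that region, the mean log2 ratio was -4.80 ± 0.16 on chromosome 2, -3.31 ± 0.04 on chromosome 7 and -3.51 ± 0.06 on chromosome 9 (SD, n = 4 each). The lowest of the 12 single values was -5.03, on chromosome 2 in KO2, and the highest was -3.26, on chromosome 7 in WT1. The values of the array of chromosome 2 did not overlap with those of the other arrays. The reads in the arrays made up a small share of each library. This share was 0.0632% in KO1, with a 95% Wilson interval of 0.0621 to 0.0644, then 0.0503% in KO2, 0.0626% in WT1 and 0.0507% in WT2. The totals are unscaled reads in all listed regions, those of very high count included. The scaling factors used for CPM were 1.23 in KO1, 0.82 in KO2, 1.12 in WT1 and 0.89 in WT2. The shares are therefore not compared between libraries.

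**Figure D3:**
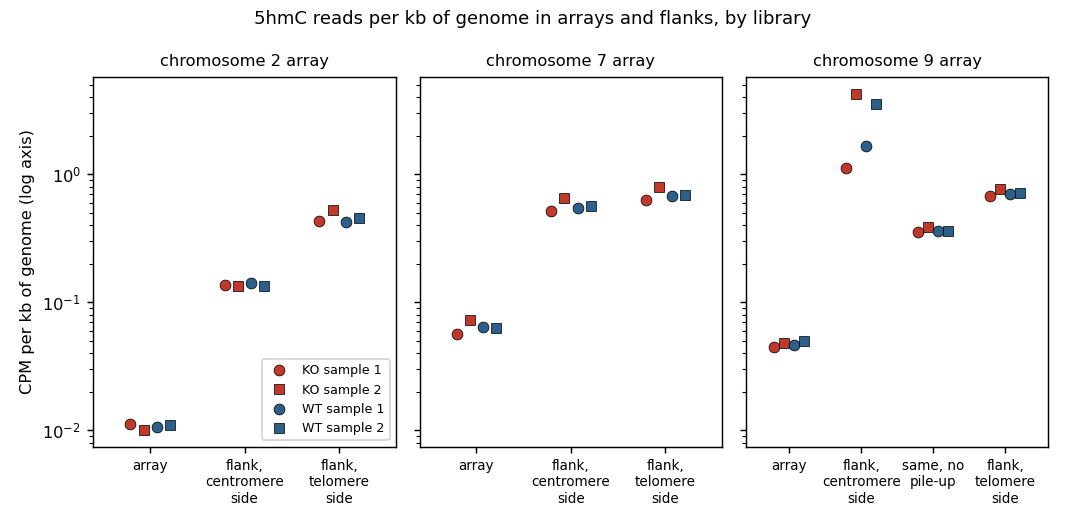
CPM per kb of genome (log axis) for each array and each of its 5 Mb flanks, with 1 point per library: red for KO, blue for WT, circles for KO1 and WT1 and squares for KO2 and WT2. All array points lie below all flank points of the same chromosome, and on chromosome 9 the spread of the flank near the centromere disappears once its pile-up region of 81084 to 297409 reads is left out.

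Summed over the 3 arrays, the array regions that were listed differed less from flank regions in level than in number. Divided by the summed width of the regions in place of the length of genome, the arrays had 5.01 and 6.01 CPM per kb in KO1 and KO2 and 5.47 and 5.53 in WT1 and WT2. The flanks, without the region of high count, had 6.74, 7.95, 6.96 and 7.14. The flanks were then 1.35-, 1.32-, 1.27- and 1.29-fold higher, and the mean log2 ratio was -0.39 ± 0.03 (SD, n = 4). With that region, the flanks had 8.60, 17.4, 10.1 and 14.9 CPM per kb of width and were 1.72-, 2.90-, 1.86- and 2.70-fold higher. The log2 ratio was below 0 in 4 of 4 libraries either way (exact permutation test, two-sided p = 0.125, the smallest possible). The gap was wider on chromosome 2, where the flanks were 1.65- to 2.14-fold higher per kb of width. The median region of that array had 0.715 CPM per kb of width, against 5.925 in its flanks. On chromosomes 7 and 9 the medians were 4.93 and 4.64 in the arrays and 6.20 and 5.88 in the flanks. Array regions were also narrower, with a median width of 332 bp against 463 bp in the flanks and 437 bp on all autosomes, and 12 of 242 (4.96%) were at least 1 kb wide, against 12.5% of flank regions.

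A part of the members had almost no reads. The mean level was under 1 CPM in 88 of 242 (36.4%), against 7.83% of flank regions and 11.7% of autosomal regions. In 30 members (12.4%) no library had more than 3 reads, compared with 1.02% in the flanks. Of the 242, 4 had 0 reads in all 4 libraries, which allows at most the 3-count levels given above. At the other end, 146 members (60.3%) had at least 10 reads in every library, and 8 (3.31%) had a mean of at least 10 CPM, against 8.73% in the flanks. The median of the mean CPM was 0.208 on chromosome 2, 1.57 on chromosome 7 and 1.49 on chromosome 9, against 2.81 over the flank regions. By this measure also, chromosome 2 was the lowest.

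**Figure D4:**
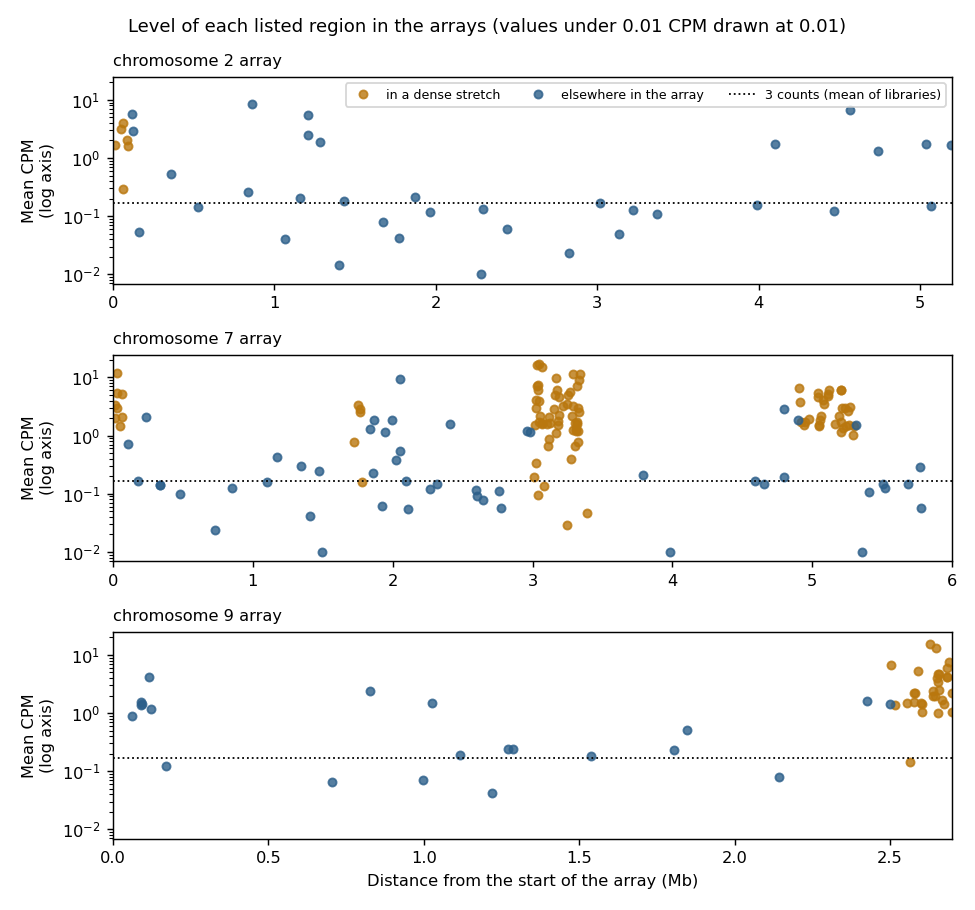
Mean CPM over the 4 libraries (log axis) of each of the 242 array regions against its distance from the array start in Mb. Orange points lie in the 6 dense stretches and blue points elsewhere, and the dotted line marks the level of 3 counts, near which many of the blue points lie.

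The strongest member of the array of chromosome 2 was chr2:85861407-85862085, with a width of 679 bp. It had 6.47 and 8.13 CPM in KO1 and KO2 and 8.71 and 10.4 in WT1 and WT2, or a mean of 12.4 CPM per kb of width. It lies outside the dense stretch, between members with few reads. The widest member of this array, chr2:86206275-86207464, had 8.53 and 4.88 CPM in KO and 3.79 and 4.42 CPM in WT. Both KO libraries were higher, with 6.71 ± 2.59 CPM in KO and 4.11 ± 0.44 in WT (SD, n = 2 each) and a log2 fold change of 0.71 ± 0.39 (SE), but edgeR's quasi-likelihood test gave an adjusted p of 1 (Benjamini-Hochberg).

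On chromosome 7, 3 of the 4 members of highest mean CPM lay within 40 kb of each other in the stretch at 112.6 to 113.0 Mb. The highest, chr7:112647224-112648091, had 10.9 and 21.3 CPM in KO and 18.0 and 17.6 CPM in WT. The widest, chr7:112628730-112630484 with 1755 bp, had 15.3 and 20.9 CPM in KO and 13.0 and 16.5 in WT. Per kb of width the highest was chr7:112667734-112668405, with a mean of 22.8 CPM per kb. Its values were 6.94 and 19.8 CPM in KO and 17.6 and 17.1 in WT, so that KO1 stood apart and the other 3 were close. The remaining one, chr7:109627712-109628502, lay near the array start, with 10.4, 14.4, 11.5 and 11.8 CPM in KO1, KO2, WT1 and WT2.

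On chromosome 9, the 4 members of highest mean CPM all lay in the last 0.2 Mb. The highest, chr9:40128011-40129593, had 11.8 and 17.0 CPM in KO and 14.6 and 17.7 in WT. The widest, chr9:40146274-40148234 with 1961 bp, varied little, with 12.9, 12.2, 12.9 and 13.6 CPM. The KO and WT values of both overlapped.

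To examine whether loss of Tet1 changed 5hmC in the arrays relative to other regions, each region was tested between KO and WT. The scaling between libraries takes the typical region as unchanged, so a loss of 5hmC shared by all regions cannot be seen in these values. By dot blot, the paper reports a significantly lower global level of this mark in KO astrocytes. A change in global level was not tested here. The fit was made over all 176957 regions of the table that passed a low-count filter, which 160 of the 242 members did (66.1%): 16 of 40 on chromosome 2, 105 of 151 on chromosome 7 and 39 of 51 on chromosome 9. In the flanks 95.8% passed. By the quasi-likelihood test of edgeR, with p-values adjusted after Benjamini and Hochberg over the whole table, 0 of 160 members passed at 0.05. The same count was 0 (0%) in the whole table, and the lowest adjusted p of a member was 1. DESeq2 also gave 0 members, against 6 regions (0.00339%) in the table. The members not tested had too few reads.

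The count rested on having both KO libraries. Without KO1, 9 of 165 tested members passed in edgeR (5.45%), where 7.52% of the whole table did. Without KO2, 1 of 165 passed (0.606%), against 1.09% of the table. In both cases the lone KO library was assumed to vary like the WT pair, which is the closer pair, and the members' share was below that of the table.

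At an unadjusted p under 0.05 there were 6 of 160 members (3.75%), against 2.81% of all tested regions. Of the 6, 4 were lower in KO (2.5%, against 1.27% in the table) and 2 were higher (1.25%, against 1.54% in the table). Both KO libraries lay above both WT libraries in 25 members (15.6%), where the background is 15.3%, and below both in 23 (14.4%), where it is 15.6%. These shares are near the background. The median log2 fold change was -0.01 over the members, with 82 lower and 78 higher, 0.06 over the flank regions and 0.02 over all tested regions. By array the median was -0.13 on chromosome 2, 0.00 on chromosome 7 and -0.15 on chromosome 9.

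The members with the lowest unadjusted p in each direction are given with their values, although none passed the adjusted threshold. Lowest of all was chr7:112650455-112650840, with 0.844 and 1.30 CPM in KO and 3.95 and 2.62 in WT. The groups did not overlap, and edgeR gave a log2 fold change of -1.62 ± 0.57 (SE) at an unadjusted p of 0.0114 (adjusted p = 1). The region lies 2363 bp from the highest member of the array, whose log2 fold change was -0.15 ± 0.32. The members chr9:40181095-40182540 (3.94 and 4.36 CPM in KO, 8.76 and 6.98 in WT) and chr7:112635433-112636356 (5.81 and 5.14 in KO, 9.24 and 9.60 in WT) had log2 fold changes of -0.93 ± 0.36 and -0.78 ± 0.33 (SE), both at an edgeR adjusted p of 1.

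In the other direction, chr7:114393769-114394164 had 2.72 and 5.46 CPM in KO and 1.39 and 1.80 in WT. Here edgeR gave a log2 fold change of 1.35 ± 0.52 (SE) at an unadjusted p of 0.0190 (adjusted p = 1). The members chr9:40189204-40190509 (7.03 and 12.3 CPM in KO, 5.02 and 5.70 in WT) and chr7:109664731-109665612 (4.27 and 9.23 in KO, 3.15 and 4.42 in WT) had log2 fold changes of 0.84 ± 0.36 and 0.83 ± 0.43 (SE), again at an edgeR adjusted p of 1. In the second of these, KO1 lay within the range of the WT libraries. The chromosome 9 member that was higher in KO stands 6663 bp from the one that was lower, in the same dense stretch. They were picked by direction, so their opposite signs follow from the choice and only the distance is described.

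**Figure D5:**
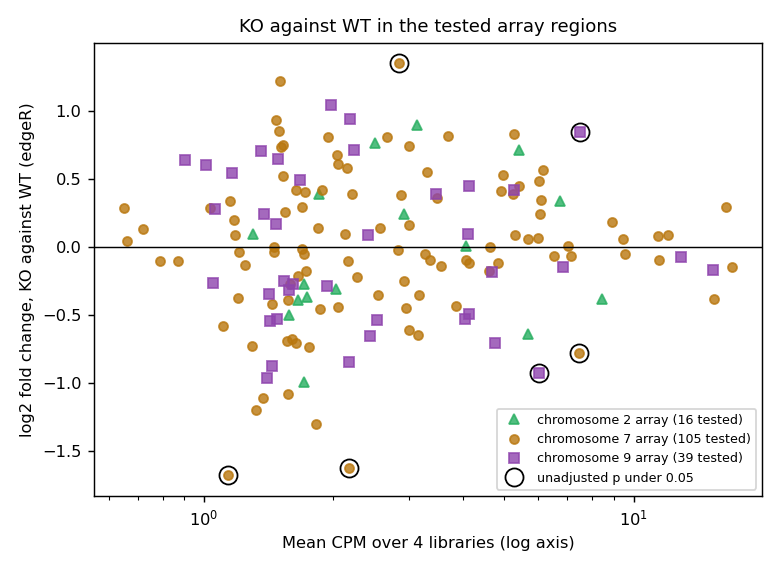
Log2 fold change of KO against WT from edgeR for the 160 tested array regions, against their mean CPM over 4 libraries (log axis), with 1 colour and shape per array. Circled points are the 6 with an unadjusted p under 0.05, and the points spread on both sides of 0 with a median of -0.01.

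The contrast between array and flank was also compared between genotypes. Without the region of high count, the mean log2 ratio was -3.62 ± 0.02 in KO and -3.56 ± 0.01 in WT (SD, n = 2 each), a difference of -0.06. Both KO libraries were below both WT libraries, and the exact two-sided permutation test gave p = 0.333, the smallest that 2 against 2 libraries allow. With all regions the difference was 0.01 and the genotypes overlapped (exact permutation p = 1). By array, again without that region, KO minus WT was -0.10 on chromosome 2, -0.04 on chromosome 7 and -0.09 on chromosome 9. Relative to the fold between array and flank, these differences are small in each array.

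The spread between libraries sets the size of difference that could be found. Over the 160 tested members, Spearman's rho was 0.806 for WT1 with WT2 and 0.670 for KO1 with KO2, compared with 0.874 and 0.734 over the tested flank regions. Pairs of a KO and a WT library ran from 0.712 to 0.740 over the members and from 0.779 to 0.850 over the flank regions. Each KO library was thus closer in rank to both WT libraries than to the other KO library. Regions are not independent replicates and members had lower levels than flank regions, so these are descriptions. The standard error of the log2 fold change had a median of 0.57 over the members and 0.49 over the flank regions.

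Olfactory receptor genes are copies of each other, some of them nearly identical, and reads that match several copies can be dropped or placed at random by an aligner. How such reads were treated is not given in the sources used here, and the 2 input libraries, which would show how much sequence of the arrays could be read, were not analysed here. The part of such reads, or of CG content, in the low density of the arrays was not tested.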

How the data were processed

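5hmC-enriched DNA of 2 KO and 2 WT mouse libraries was measured by sequencing. The authors deposited raw counts, as whole numbers, of reads in 192196 listed regions. Per the submitters' processing notes, Bowtie2 2.2.6 and the build mm9 were used. How regions were called, whether duplicate reads were removed and how reads with several matches were treated are not given in the sources used here. The 2 input libraries were not analysed here.

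Groups came from the sample titles. The low-count filter was filterByExpr in edgeR 4.0.16 under R 4.3.3, at a minimum count of 10 and a minimum total of 15, and 176957 regions passed it. Scaling between libraries used TMM (trimmed mean of M-values), and CPM are counts divided by the scaled library size. KO and WT were compared by the quasi-likelihood test of edgeR, with Benjamini-Hochberg adjustment over all tested regions. The test was also run on simulated counts. These had the same spread in KO and WT, unlike the libraries here, so they do not check the test under unequal spread. Array and flank were compared per library by summed CPM per kb, with exact permutation tests in scipy 1.17.1. DESeq2 1.42.0 was an alternative. The array coordinates are a fixed list of intervals, and a region belonged to an interval by its midpoint.

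Named regions were the 4 of highest mean CPM and the widest in each array, those bordering the longest empty stretch, and the 3 of lowest unadjusted p in each direction over all arrays. The members and lists were chosen with earlier results of these data known. The dense stretches, the removal of the chromosome 9 pile-up region and the distances between neighbours were chosen after the values were seen. Intervals and the limit of 3 counts cover counting error only, since reads are not independent molecules.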

Additional observations from a re-analysis of the deposited data

How the results depend on the processing

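The log2 ratio of array to flank was below 0 under every setting run. With all regions (-4.36) it was -4.82 with flanks of 2.5 Mb, -3.94 with the flank near the far telomere alone, -5.32 without the array of chromosome 7, -3.57 without that of chromosome 9, -1.16 per kb of region width, -3.68 without the region of highest mean count in each window and -3.59 without the pile-up region of chromosome 9. Without that region, the ratio (-3.59) was -3.82 with arrays trimmed by 0.5 Mb at both ends, -0.39 per kb of region width, -3.55 and -3.45 with flanks of 2.5 and 7.5 Mb, -3.13 and -3.94 with the centromere and the far telomere side alone, and -3.60 to -3.58 leaving out each library in turn.

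KO minus WT of that ratio was 0.01 with all regions. It changed sign to -0.0047 with flanks of 7.5 Mb, -0.0581 with the far telomere side alone, -0.008 without the array of chromosome 7, -0.0493 without that of chromosome 9, -0.0378 without the region of highest mean count in each window and -0.0554 without the pile-up region. With all regions, the pile-up region included, leaving out each library in turn gave -0.37 to 0.38. No direction is therefore given for KO minus WT.

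The ratio of regions per Mb (0.153) was 0.206 and 0.121 with the centromere and the far telomere side alone, 0.105 for regions past the low-count filter, 0.175 and 0.111 without the arrays of chromosomes 2 and 7, and 0.177 with regions under 1 kb apart joined.

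The count of members past the edgeR threshold was 0 under DESeq2, total-count scaling, no low-count filter (238 tested), autosomes only and the replicate block, with 5, 2, 6, 6 and 7 at unadjusted p under 0.05. The replicate block, with sample number as a term, gave 0 members and 79 regions in the whole table. Deviations of same-numbered KO and WT libraries had a correlation of 0.167 across regions, and no label says that the numbers mark a pairing. Leaving out each library gave 0 to 9 members: 9 without KO1, 1 without KO2 and 0 without either WT library. Each of these fits had fewer samples, and the library left alone in its genotype was assumed to vary like the other pair. The cause of the differing counts was not tested.

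In 72 members every library had under 10 reads, and at this depth they give no comparison of KO with WT.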
